A study of Homo sapiens with 9 samples.

Results

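The mitochondrial chaperones and proteases described here are 10 genes chosen by name, HSPD1, HSPE1, HSPA9, GRPEL1, DNAJA3, LONP1, CLPP, CLPX, YME1L1 and AFG3L2, read from a table of 22290 genes in all. Values for 9 of the 10 were analysed, and HSPE1 was not analysed here. The members and the lists set beside them were chosen with earlier results of these data known. The cells are labelled as IMR-32, a human neuroblastoma line, in 3 groups of 3 libraries each: parental cells, cells labelled as TRAP1 knockdown (KD) and cells labelled as TRAP1 overexpression (OE). TRAP1 is the mitochondrial member of the HSP90 family and was the targeted gene, so it is not counted among the 10. RNA libraries were made from the total RNA of whole cells, and the values are regularized log2 read counts (rlog), in which a difference of 1 is a doubling and differences of weakly measured genes are drawn toward 0. The read depth of each library is unknown from these values.

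TRAP1 itself was read first, because it checks the labels. Its rlog values were 10.67, 10.66 and 10.65 in the parental libraries, 10.79, 10.79 and 10.83 in those labelled KD, and 10.67, 10.63 and 10.74 in those labelled OE. All 3 libraries labelled KD lay above all 3 parental libraries, while those labelled OE overlapped the parental ones. The libraries labelled KD exceeded the parental ones by 0.14 (SE 0.025, limma adjusted p = 1.76e-05), and the OE difference was 0.018 (SE 0.025, limma adjusted p = 0.643). TRAP1 RNA thus went against the label KD and did not differ detectably under the label OE in the main fit. Its OE difference passed at 0.074 with 20-Mb block medians subtracted (limma adjusted p = 0.0185, the lowest in a range up to 0.782) and turned to -0.0118 without OE replicate 3. The groups are called by their labels throughout. Of the exonic bases of TRAP1, 28.5% are shared with exons of other genes, and the library kit did not mark strand.

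Markers of the cell type were also read. Of 14 markers of sympathetic neuroblastoma, 8 had values, and of these 4 had a mean rlog under 5, among them PHOX2A at 1.34, MYCN at 2.54 and TH at 2.73. The most abundant was ISL1, a transcription factor of sympathetic neurons, at 9.29, followed by GATA3 at 7.27, HAND2 at 6.34 and CHGB at 5.77, and the summed level of the list (the sum of 2 to the power of rlog) was 999, 970.2 and 989 in the parental libraries, 924, 902 and 903 in those labelled KD, below all others, and 931, 979 and 948 in those labelled OE. In KD ISL1, TH, CHGA and CHGB were lower by -0.16, -0.18, -0.20 and -0.12 (limma adjusted p = 5.27e-05, 2.38e-06, 0.00035 and 0.0419) and MYCN higher by 0.081 (limma adjusted p = 0.0129), and in OE TH and CHGB were lower by -0.15 and -0.18 (limma adjusted p = 4.46e-05 and 0.00657). Of 9 epithelial markers 6 had values, led by KRT18 at 12.04. EPCAM, ESRP1 and GRHL2 had mean rlog values under 5, at 2.58, 2.67 and 3.46. The annotation lists 68 pseudogenes named after KRT18 and 51 after KRT8, so that reads shared with these copies make both levels uncertain. The summed levels of the list were 5823, 5840 and 5784, then 5873, 6044 and 6117, then 5321, 5277 and 5338 in the same order of groups. KRT8 was higher by 0.39 in KD and by 0.40 in OE (limma adjusted p = 7.07e-12 and 1.01e-11), and CLDN4 and KRT18 were lower by -0.57 and -0.096 in OE (limma adjusted p = 3.8e-16 and 5.09e-05). Of 7 mesenchymal markers 6 had values, led by PRRX1 at 12.36, and their summed levels were 4001, 4248 and 4262 in the parental, 9158, 9150 and 9128 in the KD and 6358, 6324 and 6351 in the OE libraries. Most of that sum was PRRX1, higher by 1.29 in KD (limma adjusted p = 3.14e-31) and by 0.69 in OE (limma adjusted p = 4.98e-23), with TWIST1 higher by 0.43 and 0.28 (limma adjusted p = 8.16e-11 and 1.19e-06). PDGFRB was not called in KD or OE, and COL1A1, COL1A2 and COL3A1 had mean rlog values under 5. Of 4 leukocyte markers 2 had values, PTPRC at 2.65 and LCP1 at 2.89, and their sums lay between 13.4 and 14.1 in every library. PHOX2A, MYCN and TH, which are defining markers, were therefore low in all 9 libraries, and CHGA had a mean rlog of 3.97. The other 4 of these markers with values, ISL1, GATA3, HAND2 and CHGB, had a mean rlog over 5. The identity of the line is not established by these values. The epithelial and mesenchymal sums differed between the 3 groups without overlap, and the neuroblastoma sum was lowest in KD, with the mesenchymal difference mostly that of PRRX1. The part of these markers in the results that follow was not tested.

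Proteins that enter the mitochondrial matrix arrive unfolded. They are pulled in and held by the matrix HSP70 (HSPA9), which works with a J-domain partner (DNAJA3) and a nucleotide exchange factor (GRPEL1), and many then fold inside the chaperonin cage formed by HSP60 (HSPD1) and its lid HSP10 (HSPE1). Proteins that cannot be folded or are no longer needed are degraded by ATP-driven proteases: LONP1 and the CLPX-CLPP complex in the matrix, and AFG3L2 and YME1L1 in the inner membrane, with their active sites facing the matrix and the intermembrane space. When mitochondrial proteins misfold, cells can raise the transcription of these chaperones and proteases, and tumor cells often hold them at high levels.

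RefSeq promoter windows, which run from 250 bases before to 50 after a start (300 bases, GRCh38.p14), were matched for 7 of the 10 members, giving 9 windows. Each was searched on both strands for 5 short motifs: the E-box CACGTG, the NRF1 core GCATGCGC, the paired heat shock units TTCNNGAA and GAANNTTC, which can overlap each other, and the ATF4 and CHOP composite TTGCATCA. The E-box was found in 4 of the 9 member windows and in 7.26% of 35116 windows of all genes. The NRF1 core was found in 2 of the 9 and in 3.05% of all, TTCNNGAA in 2 and 7.74%, GAANNTTC in 1 and 6.77%, and TTGCATCA in 0 and 0.866%. HSPD1 and HSPE1 lie head to head on chromosome 2 with 104 bases between their starts at 197500274 and 197500379, so that the E-box of both windows is the same site, read on opposite strands. Some of the matches are shown, for members lower in the labelled groups (HSPD1, HSPA9, DNAJA3), for LONP1, which was higher, and for HSPE1, which shares its site with HSPD1, each as a stretch 30 bases long and written 5′ to 3′ on the strand of the gene, with the motif in capitals.
HSPD1, E-box, chr2:197500345-197500374, minus strand: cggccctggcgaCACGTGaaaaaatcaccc
HSPE1, E-box, the same bases on the plus strand: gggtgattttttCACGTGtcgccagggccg
HSPA9, E-box, chr5:138575403-138575432, minus strand: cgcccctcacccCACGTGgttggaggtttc
LONP1, E-box, chr19:5720341-5720370, minus strand: ctcacagccttcCACGTGaccggaaaaggc
LONP1, E-box, chr19:5720178-5720207, minus strand: cgcgccgggcgtCACGTGcgtttcgcggcg
HSPD1, heat shock units, chr2:197500061-197500090, minus strand: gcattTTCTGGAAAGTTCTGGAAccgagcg
DNAJA3, NRF1 core, chr16:4425789-4425818, plus strand: gcgtgcgcgacGCATGCGCctctacgcgcg
LONP1, NRF1 core, chr19:5720633-5720662, minus strand: ctgaagccctGCGCATGCGCatcaatgagt

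In the annotation the E-box stretch of HSPD1 lies inside transcripts of both HSPD1 and HSPE1 and touches an exon of HSPE1. The heat shock stretch of HSPD1 lies inside HSPD1, touches an exon of it and holds 3 overlapping matches. The LONP1 stretch at 5720178 lies inside LONP1 and touches no exon, and the LONP1 stretch at 5720633 touches an exon of the neighbouring gene CATSPERD. The E-box was present both in HSPD1 and HSPA9, which were lower in the libraries labelled KD, and in LONP1, which was higher there. A match is a run of letters, no binding was measured, and the part of these motifs in the differences was not tested.

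In the libraries labelled KD the chaperones HSPD1, HSPA9, GRPEL1 and DNAJA3 and the protease genes CLPP, YME1L1 and AFG3L2 were lower than in parental cells, with the largest difference in HSPD1, while LONP1 was higher and CLPX was not called. Of the 9 members, 8 passed the limma test at an adjusted p under 0.05, beside 53.7% of all 22290 genes. The count was 1 member higher, beside 26.9% of all genes, and 7 lower, beside 26.9% of all genes. The median difference of the 9 members was -0.079, and that of all genes was -0.000507. All 9 members are well measured, and among the 9956 genes with a mean rlog of 8 or more 75.8% passed in KD, with 39.4% of them lower and 36.4% higher. In the libraries labelled OE 5 of the 9 members passed, beside 34.8% of all genes, with 2 higher (16.9% of all genes) and 3 lower (18.0% of all genes). Their median difference was -0.046 beside 0.000394 for all genes. Among the genes with a mean rlog of 8 or more 56.7% passed in OE, 25.2% higher and 31.5% lower, which is close to the shares of the members (55.6%, 22.2% and 33.3%). Libraries did not overlap the parental ones in 8 of the 9 members in KD and in 6 in OE. The same held for 13185 and 9635 of all 22290 genes. Among the 9956 genes with a mean rlog of 8 or more it held for 7806 and 6364, so groups without overlap are common at these levels. Both comparisons use the same parental libraries. Libraries of the same group may share a culture, so the p-values measure the spread between these libraries only.

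HSPD1, the subunit of the HSP60 chaperonin, had rlog values of 15.25, 15.28 and 15.26 in the parental libraries, 14.94, 14.93 and 14.92 in the KD libraries and 15.20, 15.17 and 15.19 in the OE libraries. The 3 groups did not overlap, with KD lowest and OE between KD and parental. The KD difference was -0.33 (SE 0.010, 95% confidence interval -0.35 to -0.31, limma adjusted p = 1.75e-23), or -20.7%, and was seen in 3 of 3 libraries. The OE difference was -0.076 (SE 0.010, limma adjusted p = 2.14e-07), or -5.15%. The annotation lists 18 pseudogenes named after HSPD1, so that reads shared with these copies make its level uncertain.

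HSPA9, the matrix HSP70 that also drives import, showed the same order of groups. Its values were 14.29, 14.32 and 14.30 in the parental, 14.08, 14.08 and 14.08 in the KD and 14.27, 14.24 and 14.25 in the OE libraries. Again no library of a group reached the range of another. The KD difference was -0.22 (SE 0.012, limma adjusted p = 4.85e-17), which is -14.4%. The OE difference was -0.046 (SE 0.012, limma adjusted p = 0.00243), or -3.12%. The OE call was lost after quantile normalization, at -0.0069 (limma adjusted p = 0.678), and without a variance trend (limma adjusted p = 0.0639), and its limma adjusted p over 17 alternatives ran from 6.59e-05 to 0.678.

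GRPEL1 exchanges the nucleotide of HSPA9 and so sets its release from substrates. Its values were 11.72, 11.75 and 11.66 in the parental libraries, 11.53, 11.51 and 11.53 in the KD libraries and 11.67, 11.65 and 11.67 in the OE libraries. The KD libraries lay below all others, and the third parental library fell among the OE libraries. The KD difference was -0.19 (SE 0.021, limma adjusted p = 2.31e-09), or -12.2%. The OE difference of -0.049 (SE 0.021, 95% confidence interval -0.092 to -0.0071) did not pass, with a limma adjusted p of 0.0646, but passed with genes under a mean rlog of 5 left out (limma adjusted p = 0.0339) and without parental replicate 3, at -0.073 (limma adjusted p = 0.00804, in a range up to 0.967 over 17 alternatives).

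DNAJA3, the J-domain partner that stimulates the ATPase of HSPA9, departed from this order. Its values were 12.28, 12.26 and 12.22 in the parental, 12.17, 12.16 and 12.20 in the KD and 12.14, 12.16 and 12.19 in the OE libraries. Both labelled groups lay below all parental libraries and overlapped each other. The differences were -0.072 in KD (SE 0.019, limma adjusted p = 0.00145) and -0.088 in OE (SE 0.019, limma adjusted p = 0.000332). DNAJA3 lies on chromosome 16 as TRAP1 does, and after subtraction of the median difference of its 20-Mb block the OE difference was -0.031 and no longer passed (limma adjusted p = 0.194, in a range from 0.000105 over 17 alternatives).

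**Figure D1:**
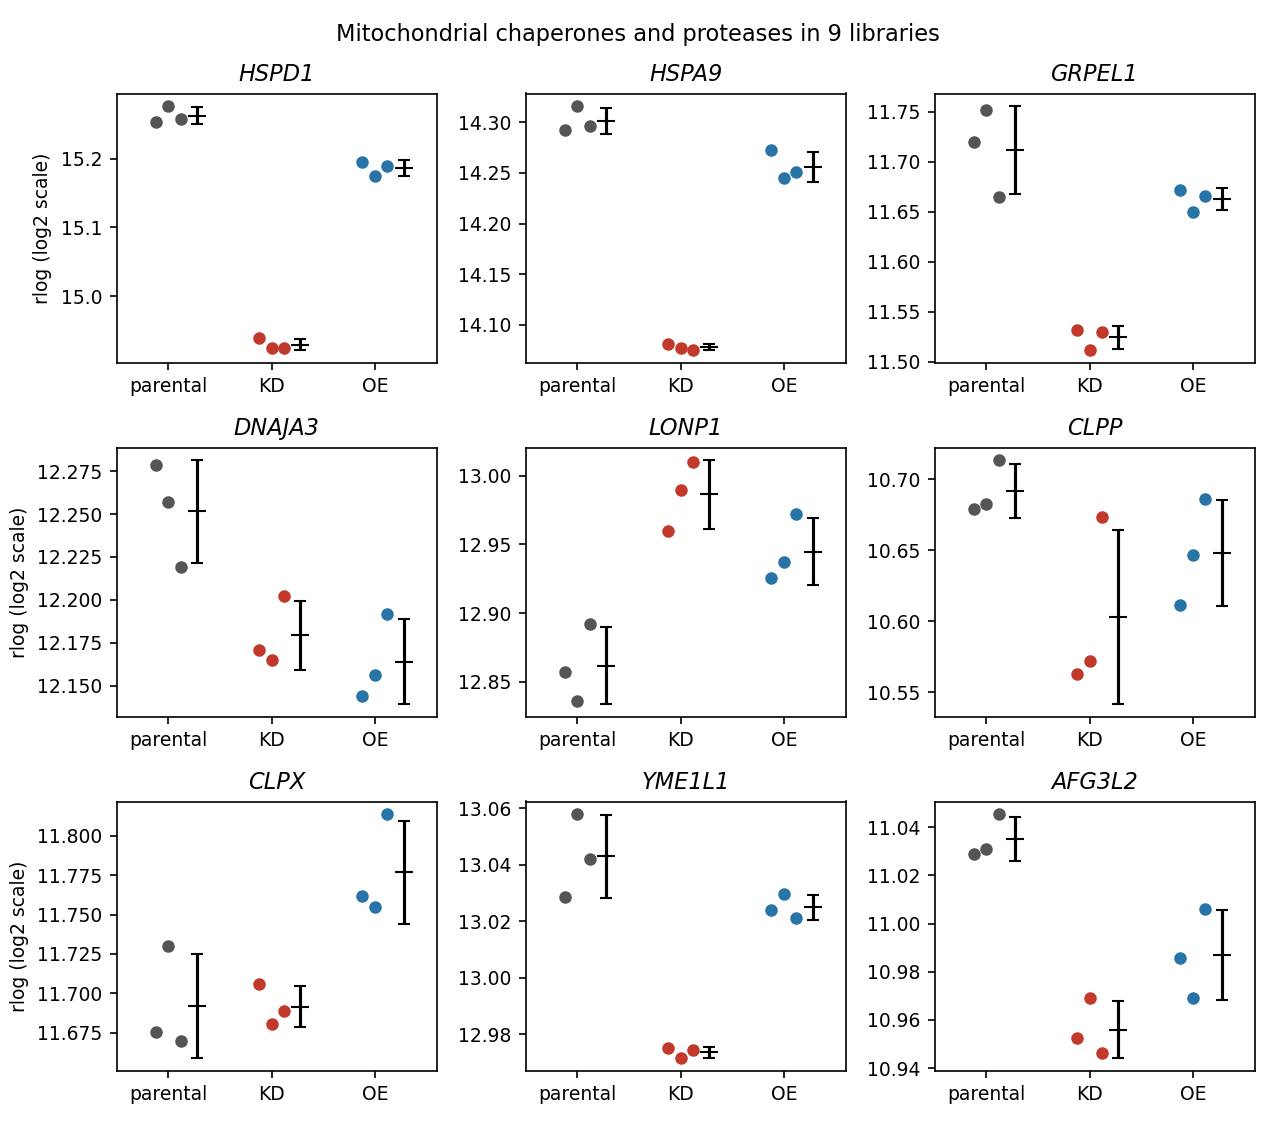
rlog values (log2 scale, vertical axis, a separate range in each panel) of the 9 members in the parental, KD and OE libraries. Points are the 3 libraries of a group and the bar beside them is the mean with the SD; HSPD1 falls from about 15.26 in parental to 14.93 in KD libraries, whereas LONP1 rises from 12.86 to 12.99.

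LONP1, the main soluble protease of the matrix, degrades oxidized and misassembled proteins and binds mitochondrial DNA. It was the only member of the 9 called higher in both labelled groups. Its values were 12.86, 12.84 and 12.89 in the parental libraries, 12.96, 12.99 and 13.01 in the KD libraries and 12.93, 12.94 and 12.97 in the OE libraries. All KD and all OE libraries lay above the parental ones, and KD and OE overlapped. The difference was 0.12 in KD (SE 0.017, limma adjusted p = 1.58e-07), a level 9.03% above parental, and 0.083 in OE (SE 0.017, limma adjusted p = 0.000197), or 5.93%. Both calls held under all 17 alternatives, with differences between 0.112 and 0.140 for KD and between 0.0696 and 0.138 for OE. LONP2, the related protease of peroxisomes, was higher by 0.091 in KD (limma adjusted p = 7.93e-05) and by 0.085 in OE (limma adjusted p = 0.000375).

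CLPP is the peptidase barrel and CLPX the ring that unfolds substrates and feeds them into it. CLPP had values of 10.68, 10.68 and 10.71 in the parental, 10.56, 10.57 and 10.67 in the KD and 10.61, 10.65 and 10.69 in the OE libraries. The third KD library lay just under the lowest parental library, and the other two were clearly lower. The KD difference was -0.089 (SE 0.027, limma adjusted p = 0.00579), and without KD replicate 1 it was -0.069 and did not pass (limma adjusted p = 0.0527, in a range from 0.000228 over 17 alternatives). The OE difference was -0.044 (95% confidence interval -0.099 to 0.011, limma adjusted p = 0.232).

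CLPX values were 11.68, 11.73 and 11.67 in the parental, 11.71, 11.68 and 11.69 in the KD and 11.76, 11.75 and 11.81 in the OE libraries. Parental and KD libraries overlapped fully, and all OE libraries lay above both. The KD difference was -0.000176, with a 95% confidence interval from -0.042 to 0.042 and a limma adjusted p of 0.995. In OE it was 0.085 (SE 0.021, limma adjusted p = 0.00132), a level 6.07% above parental. The subunits of this protease thus had different calls in each comparison, CLPP lower in KD and CLPX higher in OE, and the difference between the subunits was not tested.

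The inner membrane proteases were lower by small amounts in KD. YME1L1, which processes OPA1 and degrades import components on the intermembrane side, had values of 13.03, 13.06 and 13.04 in the parental, 12.98, 12.97 and 12.97 in the KD and 13.02, 13.03 and 13.02 in the OE libraries. The KD libraries lay below all others. Its KD difference was -0.069 (SE 0.014, limma adjusted p = 0.000111), and the OE difference was -0.018 (95% confidence interval -0.047 to 0.011, limma adjusted p = 0.375) and turned to 0.0081 after quantile normalization.

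AFG3L2, the catalytic subunit of the matrix-facing protease that matures the ribosomal protein MRPL32, had values of 11.03, 11.03 and 11.05 in the parental, 10.95, 10.97 and 10.95 in the KD and 10.99, 10.97 and 11.01 in the OE libraries. All parental libraries lay above the rest, and KD and OE met at 10.97. The KD difference was -0.079 (SE 0.021, limma adjusted p = 0.002). The OE difference of -0.048 did not pass (SE 0.021, limma adjusted p = 0.0803), but passed with genes under a mean rlog of 5 left out (limma adjusted p = 0.0428) and with 20-Mb block medians subtracted, at -0.054 (limma adjusted p = 0.0423, in a range up to 0.312). Of the exonic bases of AFG3L2, 11.73% are shared with exons of other genes.

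**Figure D2:**
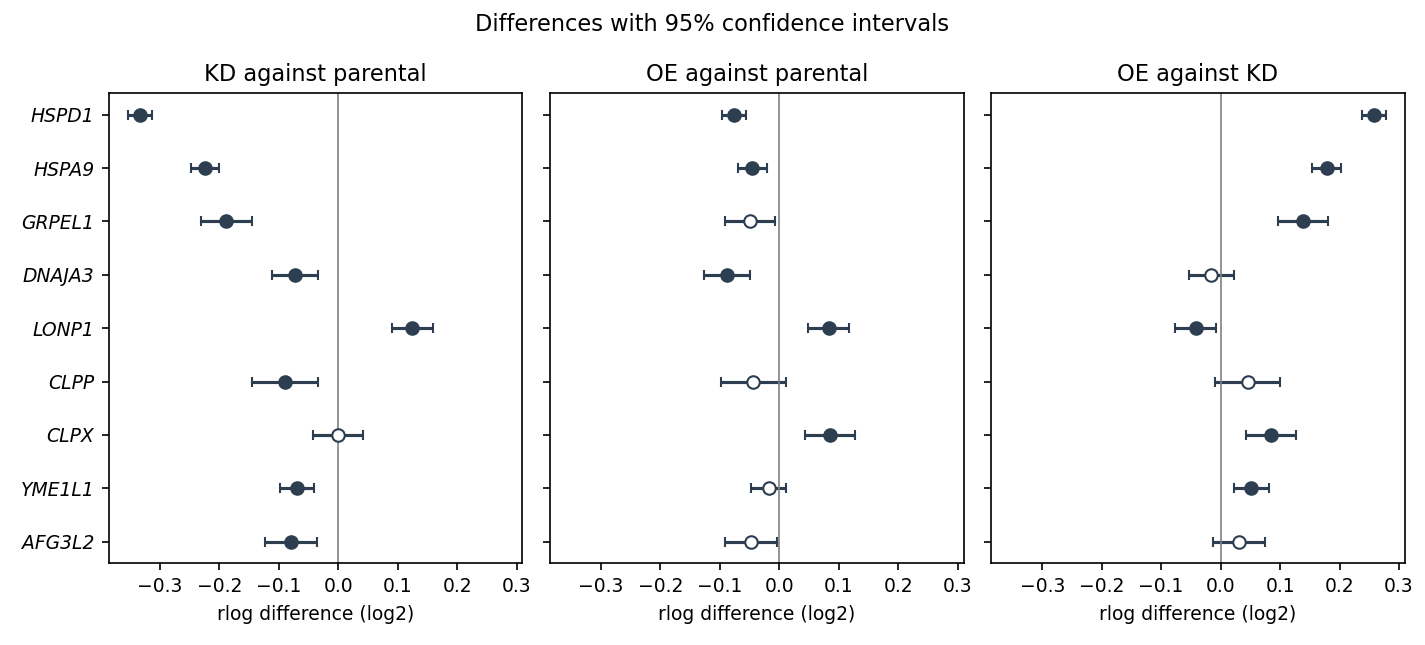
Differences in rlog (log2, horizontal axis) of the 9 members in the 3 comparisons, with 95% confidence intervals from limma. Filled points passed at an adjusted p under 0.05 and open points did not; HSPD1 lies at -0.33 in KD, -0.076 in OE and 0.26 in OE against KD.

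The direct test of OE against KD asks where the labelled groups differ from each other. Of the 9 members 6 passed, beside 47.3% of all genes, with 5 higher in OE (23.5% of all genes) and 1 lower (23.8% of all genes). The median difference of the members was 0.051 beside 0.000776 for all genes. Among the genes with a mean rlog of 8 or more 68.3% passed, 33.3% higher and 34.9% lower, so the total share of the members (66.7%) was near that of such genes. HSPD1 was higher in OE by 0.26 (SE 0.010, limma adjusted p = 2.9e-20), HSPA9 by 0.18 (SE 0.012, limma adjusted p = 2.38e-14) and GRPEL1 by 0.14 (SE 0.021, limma adjusted p = 1.08e-06). CLPX was higher by 0.085 (limma adjusted p = 0.000854) and YME1L1 by 0.051 (limma adjusted p = 0.00336). These 5 calls held under all 17 alternatives. OE and KD libraries did not overlap in 5 of the 9 members, beside 12049 of all 22290 genes. Among the 9956 genes with a mean rlog of 8 or more, 7210 did not overlap.

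LONP1 was the member called lower in OE than in KD, by -0.042 (SE 0.017, limma adjusted p = 0.0435), with overlapping libraries, and this call was lost under 9 of 17 alternatives, 5 of which left out a library (parental replicate 1, KD replicate 2, KD replicate 3, OE replicate 1 or OE replicate 2; -0.030 without KD replicate 3), with a limma adjusted p between 0.0118 and 0.87. DNAJA3 at -0.015, CLPP at 0.045 and AFG3L2 at 0.031 did not pass (limma adjusted p = 0.541, 0.179 and 0.247). CLPP passed without KD replicate 3, at 0.081 (limma adjusted p = 0.0152). It also passed with 20-Mb block medians subtracted, at 0.083 (limma adjusted p = 0.0102, the lowest in a range up to 0.537).

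Levels of different members can be compared only per length. Dividing 2 to the power of rlog by the merged exon length in kilobases gave, in parental libraries, 5154 ± 44.8 for HSPD1 (SD, n = 3), 2064 ± 18.54 for HSPA9, 1479 ± 29.1 for LONP1 and 1151 ± 11.7 for YME1L1. These were followed by DNAJA3 at 690 ± 14.3, GRPEL1 at 635 ± 19.3, CLPX at 606 ± 14.0, CLPP at 468 ± 6.18 and AFG3L2 at 294 ± 1.86. On the log2 scale per kilobase the parental ranges of neighbours in this order did not overlap, except those of GRPEL1 (9.26 to 9.35) and CLPX (9.22 to 9.28), so the order of these members is not set beyond their spread. The chaperonin and the HSP70 headed the order in every group, at 4089 ± 23.9 and 1768 ± 3.73 in KD and 4889 ± 37.8 and 2000 ± 20.4 in OE. The merged exons include every annotated transcript and can exceed the length of the RNA in these cells.

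**Figure D3:**
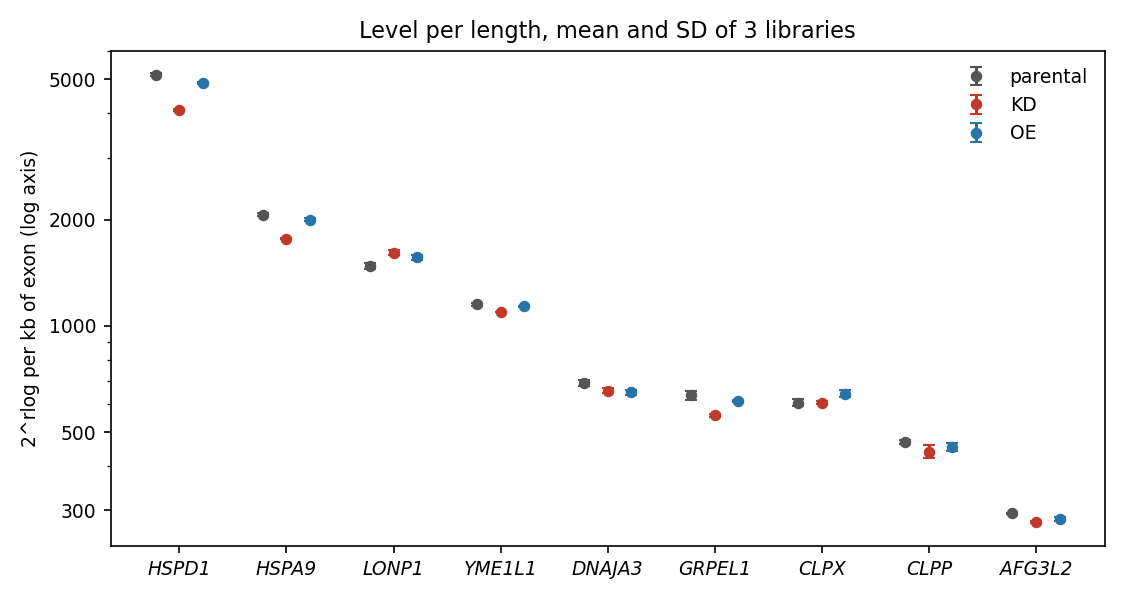
Level per length (2 to the power of rlog per kilobase of merged exon, log axis) of the 9 members, as mean and SD of the 3 libraries of each group. HSPD1 stands highest at 5154 in parental libraries and AFG3L2 lowest at 294.

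Among each other, the members with the most alike profiles over the 9 libraries, each centred on its own mean, were YME1L1 and AFG3L2, with a root mean square difference of 0.0194, and next HSPA9 and its exchange factor GRPEL1, at 0.0254. HSPD1 and LONP1 were the least alike, at 0.192. CLPP and CLPX, subunits of 1 protease, stood at 0.0666. The measure is not scaled, so members that vary little lie close to each other by construction: the root mean square of a member around its own mean was 0.0303 for YME1L1, 0.0345 for AFG3L2, 0.056 for LONP1, 0.0826 for GRPEL1, 0.097 for HSPA9 and 0.143 for HSPD1. Among 9303 other protein-coding genes at a mean rlog of 8 or more, those closest to HSPD1 were ERP44, a chaperone of the endoplasmic reticulum (ER), at 0.0105 and MAPKAP1 at 0.0119. For HSPA9 they were NARS1, a cytosolic asparaginyl-tRNA synthetase, at 0.0105 and SERTAD2 at 0.0135, and for GRPEL1 BRD3OS at 0.0129 and UBE2N at 0.0137. For LONP1 they were NARF at 0.0148 and KATNIP at 0.0149, for CLPP HNRNPA0 at 0.0167 and GRK2 at 0.0170, and for CLPX ATP5MJ, a subunit of ATP synthase, at 0.0155 and INTS8 at 0.0176. For DNAJA3 they were SUGP1 at 0.0141 and TRMU at 0.0146, for YME1L1 PAFAH1B1 at 0.0089 and CUL4A at 0.0096, and for AFG3L2 TIAL1 at 0.0112 and GTF3C1 at 0.0123.

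Further mitochondrial chaperones and co-chaperones moved both ways in KD, with more lower than higher. Of 14 genes, all with values, 7 were lower and 2 higher in KD, 4 lower and 1 higher in OE, and the medians were -0.097 and -0.028. The lower shares were 50% in KD and 28.6% in OE, beside 26.9% and 18.0% of all genes and 39.4% and 31.5% of those with a mean rlog of 8 or more, and the higher shares were 14.3% and 7.14%, beside 26.9% and 16.9% of all genes. PPIF, the matrix cyclophilin that regulates the permeability transition, was lower by -0.46 in KD (SE 0.019, limma adjusted p = 4.85e-20) and by -0.27 in OE (limma adjusted p = 2.7e-13). TIMM44, which tethers HSPA9 to the import channel, was lower by -0.27 in KD (limma adjusted p = 8.29e-13) and by -0.094 in OE (limma adjusted p = 0.000677), where the call was lost with 20-Mb block medians subtracted (limma adjusted p = 0.156). HTRA2, a protease and chaperone of the intermembrane space, was higher by 0.23 in KD (limma adjusted p = 7.69e-10), with 32.33% of its exonic bases shared with other genes. DNAJC15, a J-domain protein of the import motor, was the gene higher in OE, by 0.093 (limma adjusted p = 0.0274, in a range up to 0.158), a call lost with block medians subtracted and without parental replicate 1, OE replicate 1 or OE replicate 3, and was lower by -0.16 in KD (limma adjusted p = 0.00017). DNAJC19, higher in KD by 0.069 (limma adjusted p = 0.0433, in a range up to 0.112), lost its call under 7 of 17 alternatives. CLPB and BCS1L were lower in KD by -0.13 and -0.12 (limma adjusted p = 1.07e-05 and 4.69e-05). In OE they were lower by -0.11 and -0.12 (limma adjusted p = 0.000238 and 0.000246).

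Of 13 further mitochondrial proteases and peptidases, 11 had values, and OMA1 and PARL were not analysed here. In KD 4 were lower and 2 higher, in OE 2 lower and 1 higher, with medians of 0.023 and 0.015. Lower shares of 36.4% and 18.2% stand beside 26.9% and 18.0% of all genes and 39.4% and 31.5% of those with a mean rlog of 8 or more, and higher shares of 18.2% and 9.09% beside 26.9% and 16.9% of all genes. PMPCA, a subunit of the peptidase that removes import signals, was lower by -0.35 in KD (SE 0.021, limma adjusted p = 1.51e-15) and by -0.12 in OE (limma adjusted p = 1.36e-05), and both calls were lost with 20-Mb block medians subtracted (limma adjusted p = 0.973 and 0.435). SPG7, which forms a mixed protease with AFG3L2, was lower by -0.12 in KD (limma adjusted p = 2.64e-06) and by -0.11 in OE (limma adjusted p = 1.08e-05), the OE call being lost with the same subtraction (limma adjusted p = 0.312). MIPEP, an intermediate peptidase of the matrix, was higher by 0.12 in KD (limma adjusted p = 0.000151), as was XPNPEP3 by 0.12 (limma adjusted p = 0.000358). IMMP1L and PITRM1 were lower in KD by -0.18 and -0.14 (limma adjusted p = 8.55e-05 and 0.0141), and PITRM1 lost its call with block medians subtracted and without KD replicate 2 or KD replicate 3 (limma adjusted p up to 0.928). METAP1D, a mitochondrial methionine aminopeptidase, was the gene called higher in OE, at 0.078 (limma adjusted p = 0.0465, in a range up to 0.16), a call lost under 10 of 17 alternatives, 6 of which left out a library.

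Scaffolds, partners and substrates of the proteases moved both ways. Of 12 listed genes 11 had values, and PHB1 was not analysed here. In KD 5 were lower and 2 higher, in OE 3 lower and 1 higher, with medians of -0.076 and -0.047. Called lower were 45.5% and 27.3%, beside 26.9% and 18.0% of all genes and 39.4% and 31.5% of those with a mean rlog of 8 or more, and called higher 18.2% and 9.09%, beside 26.9% and 16.9% of all genes. OPA1, the fusion factor that YME1L1 cleaves, was higher by 0.37 in KD (SE 0.018, limma adjusted p = 1.18e-17) and by 0.054 in OE (limma adjusted p = 0.0205, in a range up to 0.0764), the OE call being lost without parental replicate 1, parental replicate 2 or OE replicate 1. DELE1, which carries mitochondrial stress signals to the cytosol, was higher by 0.12 in KD (limma adjusted p = 6.7e-07). ALAS1, the rate-limiting enzyme of heme synthesis, was lower by -0.31 in KD (limma adjusted p = 1.05e-15) and by -0.18 in OE (limma adjusted p = 1.29e-09), and its KD call was lost with 20-Mb block medians subtracted (limma adjusted p = 0.776). TIMM17A, an import channel subunit that YME1L1 degrades under stress, was lower by -0.21 in KD (limma adjusted p = 1.09e-10) and by -0.075 in OE (limma adjusted p = 0.00308). MAIP1, MRPL32 and TFAM were lower in KD by -0.19, -0.20 and -0.17 (limma adjusted p = 5.08e-06, 2.75e-08 and 1.17e-07) and were not called in OE. STOML2, a scaffold of YME1L1, was lower by -0.11 in OE (limma adjusted p = 2.91e-06), a call lost with the same subtraction (limma adjusted p = 0.845), and was at 0.029 in KD (limma adjusted p = 0.151).

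Regulators and outputs of the mitochondrial and integrated stress responses were mostly lower. Of 11 listed genes 9 had values, and ATF5 and FGF21 were not analysed here. In KD 7 were lower and 1 higher, in OE 6 lower and 1 higher, with medians of -0.15 and -0.065. The lower shares were 77.8% and 66.7%, beside 26.9% and 18.0% of all genes and 39.4% and 31.5% of those with a mean rlog of 8 or more, and the higher share was 11.1% in both, beside 26.9% and 16.9% of all genes. GDF15, a secreted stress signal, was lower by -1.01 in KD (SE 0.046, limma adjusted p = 9.49e-19) and at -0.060 in OE (limma adjusted p = 0.351), and was higher in OE than in KD by 0.95 (limma adjusted p = 7.53e-18). CEBPG, a partner of ATF4, was lower by -0.43 in KD (limma adjusted p = 3.04e-15) and by -0.12 in OE (limma adjusted p = 0.000512). HSF1, the heat shock regulator, was lower by -0.30 in KD (limma adjusted p = 4.14e-13) and by -0.15 in OE (limma adjusted p = 2.09e-06). TRIB3, a target of ATF4, was lower by -0.19 in KD (limma adjusted p = 2.12e-08) and by -0.27 in OE (limma adjusted p = 4.95e-11). CEBPB was lower by -0.14 in KD and by -0.14 in OE (limma adjusted p = 8.7e-05 and 0.000161). EIF2AK1, the kinase that DELE1 activates, was the gene called higher in both groups, by 0.11 in KD (limma adjusted p = 4.97e-07) and by 0.065 in OE (limma adjusted p = 0.00209). ATF4 was lower by -0.12 in KD (limma adjusted p = 8.49e-09) and by -0.043 in OE (limma adjusted p = 0.0172). Its OE libraries overlapped the parental ones, and that call was lost under 6 of 17 alternatives (limma adjusted p up to 0.832). The OE call of SSBP1, at -0.065 (limma adjusted p = 0.0013), was lost with 20-Mb block medians subtracted (limma adjusted p = 0.19).

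The lower levels were not limited to mitochondrial chaperones. Of 18 cytosolic and ER counterparts, all 18 were lower in KD and 17 in OE, with medians of -0.26 and -0.082. All 18 were higher in OE than in KD, with a median of 0.15. Called higher in OE than in KD were 23.5% of all genes and 33.3% of those with a mean rlog of 8 or more. The lower shares in KD and OE were 100% and 94.4%, beside 26.9% and 18.0% of all genes and 39.4% and 31.5% of those with a mean rlog of 8 or more. The list was chosen with earlier results of these data known, so these shares are descriptive. After quantile normalization the counts were 18 lower in KD and 13 lower in OE. The 8 subunits of the cytosolic chaperonin CCT, the counterpart of HSPD1, had a median of -0.21 in KD, between -0.27 and -0.074, and of -0.066 in OE. Among the others, the inducible HSP70 gene HSPA1A was lower by -1.08 in KD (SE 0.027, limma adjusted p = 1.17e-25) and by -0.46 in OE (limma adjusted p = 3.74e-15). Its near-identical copy HSPA1B, whose reads can be assigned to either gene, was lower by -0.998 in KD (limma adjusted p = 1.92e-18) and by -0.50 in OE (limma adjusted p = 1.78e-10). HSPH1, the exchange factor of cytosolic HSP70, was lower by -0.60 in KD (limma adjusted p = 4.03e-28) and by -0.24 in OE (limma adjusted p = 1.39e-16). Of 24 promoter windows of this list, 5 held TTCNNGAA, 10 held GAANNTTC and 0 held the E-box. The shares of all 35116 windows were 7.74%, 6.77% and 7.26%. With so few windows, 0 matches do not set the list apart, and the part of these motifs in the differences was not tested.

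**Figure D4:**
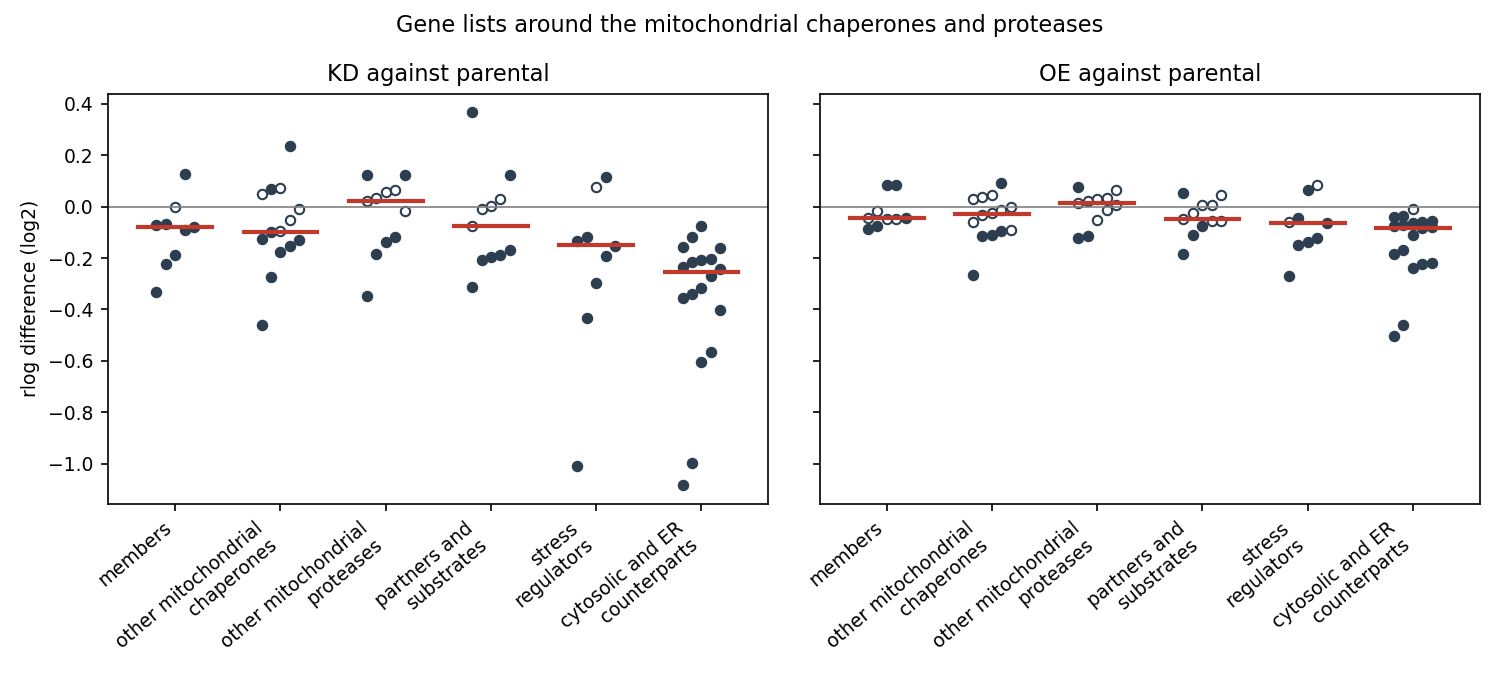
Differences in rlog (log2, vertical axis) of the 9 members and of 5 lists of related genes in KD and OE against parental libraries. Filled points passed limma at an adjusted p under 0.05, open points did not, and the red line is the median of the list, which is -0.26 for the cytosolic and ER counterparts in KD and -0.079 for the members.

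Genes that start within 5 Mb of each member give the local background. HSPD1 has 61 such genes, of which 21 were higher and 11 lower in KD, with a median of 0.016, and 0% of them had a lower KD difference than HSPD1. Of the genes with a mean rlog of 8 or more, the nearest on 1 side, RFTN2, was higher by 0.44 in KD and by 0.39 in OE (limma adjusted p = 3.25e-11 and 2.04e-09), and that on the other side, MOB4, was at -0.028 in KD (limma adjusted p = 0.513) and higher by 0.099 in OE (limma adjusted p = 0.0199). HSPA9 has 128, with a median of 0.014 in KD, and 6.25% of them lay below it. The nearest such gene on 1 side of HSPA9, ETF1, was lower by -0.22 in KD (limma adjusted p = 2.01e-15). That on the other side, CTNNA1, was higher by 0.036 in KD (limma adjusted p = 0.00312). In OE ETF1 was lower by -0.083 and CTNNA1 by -0.0815 (limma adjusted p = 5.1e-06 and 8.97e-08), beside -0.046 for HSPA9. GRPEL1 has 76, with a median of -0.014, and its nearest such genes were TADA2B, lower by -0.29 in KD and -0.185 in OE (limma adjusted p = 1.76e-10 and 3.5e-06), and AFAP1, at -0.035 in KD (limma adjusted p = 0.266) and higher by 0.13 in OE (limma adjusted p = 0.000122). LONP1 has 275, with a median of -0.027 in KD and -0.023 in OE, against 0.12 and 0.083 for LONP1 itself. CLPP, also on chromosome 19, has 258 with medians of -0.017 and -0.019. YME1L1 has 50 with a KD median of 0.051, the highest of the 9 members, and AFG3L2 has 57 with -0.011. DNAJA3 has 211 with -0.0059 in KD and -0.023 in OE, where 24.6% lay below it, and CLPX has 103 with 0.0077 and 0.0051.

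**Figure D5:**
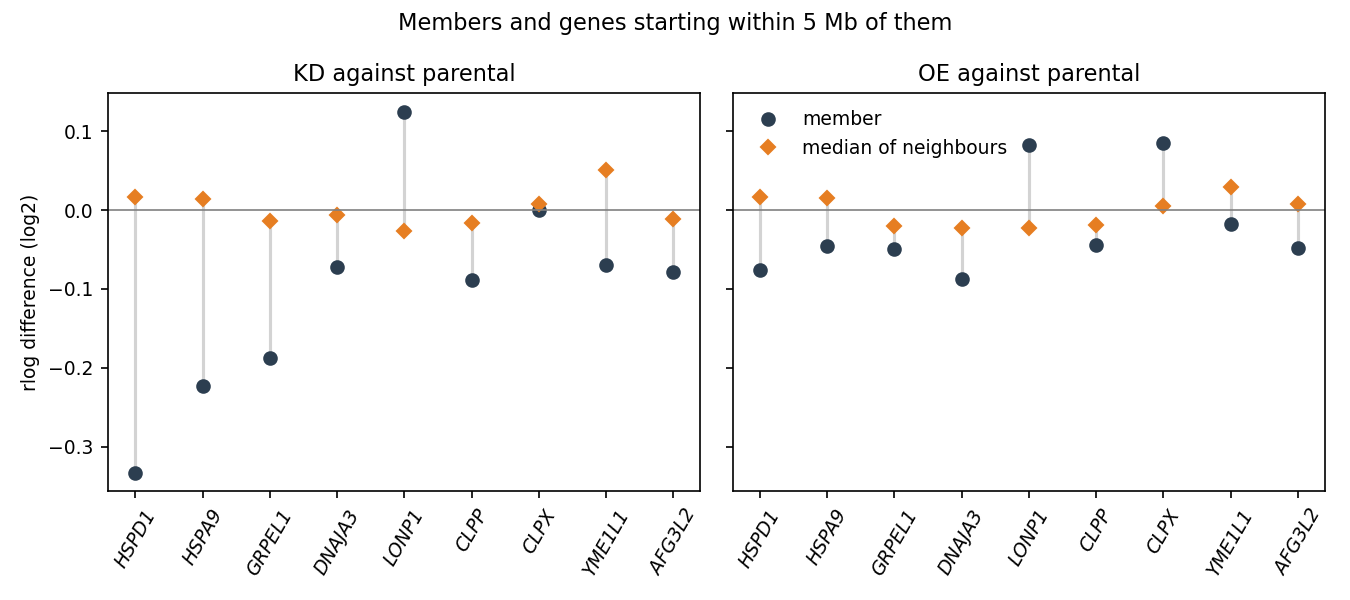
rlog difference (log2, vertical axis) of each member (circles) and the median of all genes starting within 5 Mb of it (diamonds) in KD and OE against parental libraries. HSPD1 lies at -0.33 in KD while its 61 neighbours have a median of 0.016.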

How the data were processed

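RNA of 9 libraries (3 parental, 3 KD, 3 OE) was prepared with a kit that does not mark strand and sequenced on an Illumina instrument. Per the study's methods and notes, the authors trimmed reads with cutadapt, aligned them to GRCh38 with HISAT2, counted with featureCounts of Subread, removed genes with a total under 10 and transformed the counts with DESeq2. Versions are not given in the sources used here. The deposited values are regularized log2 values, which are shrunken, so no count test was possible. The depth of each library is not known from these values, and the study gives only 1 nominal figure for all. It also states that the cell line was authenticated. Another 3 columns hold no values. All 22290 genes were fitted on group means over the 9 libraries with limma 3.58.1 in R 4.3.3 (empirical Bayes with trend, two-sided), p-values were adjusted by Benjamini-Hochberg within each comparison, and genes were called at an adjusted p under 0.05. The procedure was tested on simulated data, where small differences of genes with a wide spread were missed in part. Recovery fell short of the share first required, and that criterion was then replaced by others. Most differences of the members are small. Symbols matched all but 95 identifiers. Another listed cell type marker is not reported here. The members and lists were chosen with earlier results of these data known. All members and TRAP1 are named. Genes that could be named beside them, not all of which are, were the 3 called genes of largest difference per list and comparison, any gene in a count under 6, the 2 nearest profiles and the nearest neighbours of each member. Alternatives were a replicate block, other fits, filters and scalings, subtraction of 20-Mb block medians and leaving out each library.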

Additional observations from a re-analysis of the deposited data

How the results depend on the processing

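Over 17 alternatives, the counts of all genes called stayed within 1.5 times in the 3 comparisons, and so did the members called higher in each and the members called lower in KD. Same-numbered libraries did not all pair by the rule used, which asked for a correlation of deviations over 0.1 in every pair (9956 genes). Pairs with a parental library ran from -0.12 to 0.0213, and those of KD with OE from 0.041 to 0.268, where 5 of the 6 libraries correlated best with their own number, a hint from the data that the labels do not state. With the replicate block 12015, 7854 and 10623 genes were called in KD against parental, OE against parental and OE against KD, with no change in any member's call; LONP1 in OE against KD was then at -0.042 (limma adjusted p = 0.0225). Members called lower in OE numbered 5 with genes under a mean rlog of 5 left out, where fewer genes are tested, against 3. The 1 member called lower in OE against KD, LONP1, became 0 without a variance trend, with library medians subtracted, after quantile normalization and with 20-Mb block medians subtracted, and ranged from 0 to 1 over the left-out libraries; the cause was not tested.

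Directions turned for differences near 0 that were not called. CLPX in KD was 0.0077 after quantile normalization and ranged from -0.0111 to 0.0189 over the left-out libraries. CLPP in OE was 0.011 with block medians subtracted, YME1L1 in OE was 0.0081 after quantile normalization, and DNAJA3 in OE against KD was 0.0018 after quantile normalization and 0.035 with block medians subtracted. TRAP1 in OE ranged from -0.0118 (without OE replicate 3) to 0.0417 over the left-out libraries and passed at 0.074 (limma adjusted p = 0.0185, the lowest in a range up to 0.782) with block medians subtracted. Of the 510 values of members and TRAP1 under the alternatives, 481 kept direction and call. Of 510 counts of the 5 other lists, 462 stayed within 1.5 times and 48 moved, most of them counts of 3 or fewer genes. The deposited values are shrunken, which limits the size of differences in weakly measured genes, and they do not give the depth of each library.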
